A study of Mus musculus with 8 samples.

Results

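The comparison described here set pancreatic beta cell nuclei from islets exposed to forskolin (FSK) against beta cell nuclei from untreated islets (CON), both from wild type (WT) mice. Its members were 2 of the 54 columns of a single nucleus RNA-seq table, chosen by their labels: the pooled beta cell values of WT FSK and of WT CON. The study profiled cultured mouse islets of WT animals and of animals with the Med14 S983A knock-in, carried in the whole body, which replaces a serine of the Mediator subunit Med14 by alanine. Islets of each genotype were left untreated, exposed to FSK for 16 h, or exposed for 16 h to 10 nM Exendin-4 (Ex-4), a peptide that activates the receptor for GLP-1 and resists degradation. Nuclei were sorted by their DNA stain and barcoded in wells assigned to the 6 conditions. The sources used here do not give the islet dose of FSK, the age of the mice or the number of animals behind each pool. Each condition gave 1 pooled value for each cell type, so no test between conditions could be run, and treatment cannot be told apart from the islet pool or the barcode wells that carried it.

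Forskolin binds adenylyl cyclase and raises cyclic AMP (cAMP) without the need for a receptor. In beta cells cAMP activates protein kinase A (PKA) and EPAC, which amplify insulin secretion, and PKA phosphorylates CREB, a transcription factor that binds the cAMP response element (CRE). Sustained cAMP signaling is known to be limited by feedback through phosphodiesterases, which break cAMP down, through regulators of G protein signaling and through receptor desensitisation.

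Levels are given as counts per 10000 counts of the column (CP10K), and differences as the difference of log2(CP10K + 1) between WT FSK and WT CON. A gene was called higher or lower at a 1.5-fold difference on that scale (0.58), which demands more than 1.5-fold for weakly expressed genes. Of 17362 genes, 10093 had enough expression over the 6 beta cell columns to be compared, and 153 of them (1.52%) were higher and 73 (0.723%) were lower after FSK. On the plain CP10K ratio the median fold was 2.66 for the higher genes and 2.37 for the lower genes, and 52 and 13 of them passed 2-fold on the log2(CP10K + 1) scale. Counting intervals (95%, exact Poisson) of WT CON and WT FSK were apart for each called gene, but these intervals cover at most counting error and not the spread between islets. They also treat the recovered whole numbers as raw counts, which the sources used here do not settle. Ratios of CP10K are given below with their 95% exact interval in brackets, which has the same limits. Both numbers of called genes depend on the scale. The ratio WT FSK over WT CON had a median of 0.804 over all compared genes. On the CP10K ratio with a pseudocount of 0.322 CP10K there were 320 higher and 300 lower genes, and with 0.0322 CP10K there were 629 and 2722. Of all compared genes 71.6% had a difference below 0, with a median of -0.05. The genes nearest the threshold were *Cpeb4* at 0.59 inside and *Anxa4* at 0.58 outside, and *Rbm25* at -0.59 inside and *Pnisr* at -0.58 outside.

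The WT CON beta cell column stood apart from the other columns without FSK, which bears on every difference below. Between any 2 of mutant CON, mutant Ex-4 and WT Ex-4, 5 or 6 genes were past 1.5-fold, whereas 539, 526 and 315 were past it between each of these columns and WT CON. WT FSK and mutant FSK differed at 14 genes. Each comparison was therefore repeated with the mean of mutant CON, mutant Ex-4 and WT Ex-4 in place of WT CON, a choice made after seeing the data. That control holds no untreated WT column, and the study reports broad beta cell changes both with Ex-4 and in untreated mutant nuclei. A difference from it therefore cannot tell FSK apart from Ex-4 and genotype, and a gene that fails there is not shown to be unchanged by FSK. Against that control 577 genes (5.72%) were higher and 288 (2.85%) lower in WT FSK. Of the 153 higher genes, 146 were also past the threshold against that control, with a median difference of 1.16. The 7 exceptions were *Cdk8*, *Ppp6r1*, *Erich3*, *Hap1*, *Scg2*, *Plat* and *Mat2a*. For 109 of the 153 the WT CON level lay above every column of that control. Passing was fixed in advance for these 109, so the 146 are not read as support for the calls. Of the 73 lower genes 25 were past the threshold against that control, with a median of -0.28. For all of the remaining 48 the WT CON level lay above the levels of mutant CON, mutant Ex-4 and WT Ex-4, beside 37.2% of all compared genes. The way these 48 were chosen already puts WT CON above the mean of those columns, so nothing is read from that count. These repeats share the WT FSK column. A gene is described as held below when it was past the threshold against both controls, and as not called when it was under the threshold against WT CON, whatever its difference from the other control. For the 109 higher genes with WT CON above every column of the other control, being held adds nothing to the call.

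Beta cell columns held 1915006 to 3094377 counts, so that 1 count was worth 0.00323 CP10K in WT FSK and 0.00332 CP10K in WT CON. The 12 beta cell markers summed to 96.3 CP10K in WT CON and 101.1 in WT FSK beta cells, although 8 of them had a difference below 0 and 4 above 0 (median -0.19). The 6 alpha cell markers summed to 1.61 and 3.6 CP10K, of which *Ttr* made up 1.19 and 3.3, while the alpha cell hormone gene *Gcg* was 0.375 and 0.262. Summed delta, PP, endothelial, leukocyte and Schwann cell markers were each below 0.4 CP10K in both columns and lower in WT FSK, acinar markers were at 0.0133 and 0.0162 CP10K, and the ductal and stellate markers in the table were at 0. Whether other cell types in the pools had a part in the differences was not tested. *Med14* itself was 0.478 CP10K in WT CON and 0.753 in WT FSK (0.25).

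**Figure D1:**
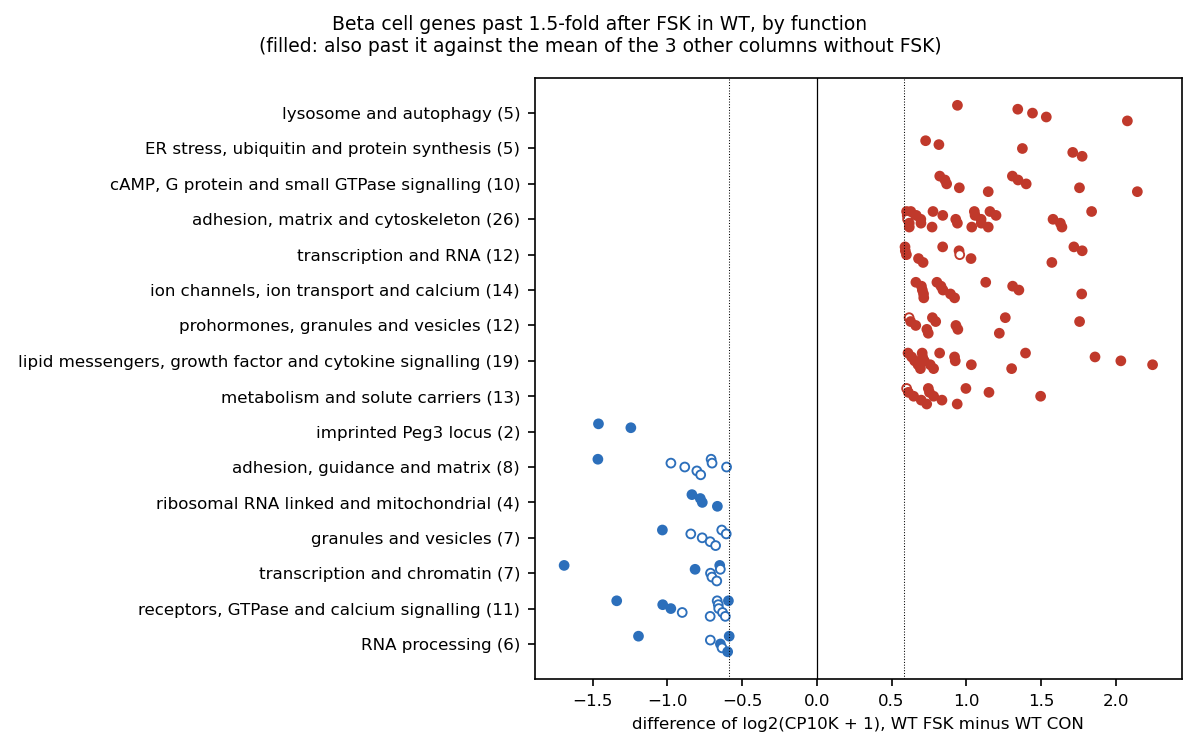
Difference of log2(CP10K + 1) between WT FSK and WT CON in beta cells for the 161 called genes that were placed in a functional group, 1 point per gene, with the number of genes in brackets; dotted lines mark 1.5-fold. Filled points were also past 1.5-fold against the mean of mutant CON, mutant Ex-4 and WT Ex-4: nearly all of the higher genes are filled, whereas most lower genes in adhesion, granules, receptors and transcription are open. Filling was fixed in advance for higher genes with WT CON above each of those columns.

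Because CREB acts through the CRE, the promoters of the called genes were searched for it, from 250 bases before to 50 bases after the start of the canonical transcript (GRCm39, GENCODE M39). The full palindrome TGACGTCA was found in 5 of 150 promoters of higher genes (3.33%), in 2 of 71 promoters of lower genes (2.82%) and in 332 of 9834 promoters of all compared genes (3.38%), so the share among the higher genes was that of the background. None of the 15 genes with the highest difference held it. The half-site (TGACG or CGTCA, which the palindrome contains) was in 24.7% of higher, 15.5% of lower and 30.9% of all promoters. The AP-1 site TGACTCA, read on both strands, was in 4.67%, 5.63% and 3.42%, and the E-box CACGTG, the core of the ChREBP site, in 8%, 5.63% and 10.5%. Distal enhancers were not searched. Called genes whose palindrome lay upstream of the transcript start were *Pcsk1*, the prohormone convertase, *Errfi1*, an inhibitor of EGF receptor signaling, *Camk2d*, a calcium/calmodulin dependent kinase, and the imprinted gene *Peg3*, the last of these lower after FSK. Their windows are shown with the palindrome in capitals and 30 bases on each side, on the strand of the gene (plus for *Pcsk1*, *Errfi1* and *Camk2d*, minus for *Peg3*), and the palindrome began 47, 46, 69 and 128 bases before the start in this order.
Pcsk1, chr13:75237868-75237935: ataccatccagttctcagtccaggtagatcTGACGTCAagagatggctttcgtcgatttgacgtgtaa
Errfi1, chr4:150939446-150939513: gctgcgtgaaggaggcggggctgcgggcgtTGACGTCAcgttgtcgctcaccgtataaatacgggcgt
Camk2d, chr3:126389853-126389920: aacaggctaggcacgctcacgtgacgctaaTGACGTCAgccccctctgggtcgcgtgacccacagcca
Peg3, chr7:6733559-6733626: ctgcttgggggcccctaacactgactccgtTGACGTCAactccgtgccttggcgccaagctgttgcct
*Errfi1* was 0.276 CP10K in WT CON and 1.42 in WT FSK, 5.14-fold (4.05 to 6.58) higher, *Camk2d* 1.38 and 3.27 CP10K and *Pcsk1* 3.32 and 6.38 CP10K, and the palindrome was also in the searched region of *Clstn2*, *Scg2* and *Cmss1*, at or after the start.

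Of all called genes, 161 were sorted by known function into groups, after their values were seen (116 higher and 45 lower). The group for cAMP, G protein and small GTPase signaling held 10 higher genes, all of them held against the other control and called in the mutant. *Gnas* (chr2:174126022-174188537, plus strand), which encodes the stimulatory G protein alpha subunit that activates adenylyl cyclase, was 2.09, 12.7 and 2.27 CP10K in WT CON, FSK and Ex-4 and 3.15, 15.8 and 3.73 CP10K in mutant CON, FSK and Ex-4. Both FSK columns were above all other columns, and WT FSK was 6.05-fold (5.56 to 6.59) above WT CON. *Pde10a* (chr17:8744204-9205482, plus strand), a phosphodiesterase that hydrolyses cAMP and cGMP, was 30.9, 107 and 26.5 CP10K in WT CON, FSK and Ex-4 and 22.5, 106 and 24.7 CP10K in mutant CON, FSK and Ex-4. It was 3.46-fold (3.38 to 3.54) higher in WT FSK and by level the leading member of its family. *Pde1c*, the calcium and calmodulin activated enzyme of the family, was 3.55 CP10K in WT CON and 10.6 in WT FSK, and *Prkar1a*, a regulatory subunit that holds the PKA catalytic subunits inactive, was 1.03 and 2.67 CP10K. *Rgs17*, which speeds the inactivation of G protein alpha subunits, was 1.32 CP10K in WT CON and 5.12 in WT FSK (3.88-fold, 3.48 to 4.35). The remaining genes were *Gabbr2* and *Gng12*, a GABA B receptor and a G protein gamma subunit, and the small GTPase genes *Rasgef1b*, *Rap1b* and *Diras2*, the last at 0.0896 and 1.41 CP10K.

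Across the cAMP pathway few members were called. The gene lists counted here and below were chosen with earlier results of these data known. Of 14 compared phosphodiesterase genes 2 were higher and 0 lower, with a median difference of 0.00 beside -0.05 over all genes, and *Pde4d* (5.56 and 8.79 CP10K, 0.58) and *Pde4b* (0.49) were under the threshold. The difference of *Pde4d* was 0.99 against the other control and 1.02 in the mutant, both past the threshold, and that of *Pde4b* 0.54 and 0.46. None of the 3 compared adenylyl cyclases was called against WT CON, *Adcy6* being 0.943 CP10K in WT CON and 0.41 in WT FSK (-0.46), although its difference was -0.87 against the other control and -0.95 in the mutant. Among 4 receptors that raise cAMP, *Glp1r*, the receptor for GLP-1 and Ex-4, was called lower, at 9.39, 5.55 and 7.68 CP10K in WT CON, FSK and Ex-4 and 7.34, 5.27 and 6.25 CP10K in mutant CON, FSK and Ex-4. Both FSK columns were the lowest of the 6, but the difference was -0.67 against WT CON and -0.30 against the other control. The receptors *Gipr* (3.06 and 1.79 CP10K, -0.54) and *Gcgr* (0.295 and 0.0808 CP10K, -0.26) had negative differences under the threshold. For *Gipr* the difference was -0.81 against the other control and -1.15 in the mutant, both past the threshold, and for *Gcgr* -0.45 and -0.43. *Grk5*, a receptor kinase, was called lower (-0.61) but had a difference of 0.42 against the other control. None of 11 CREB factors, coactivators and salt inducible kinases was called against WT CON. The nearest was *Creb1*, at 1.01 CP10K in WT CON and 1.98 in WT FSK (0.57), followed by *Crtc3* (0.32) and *Crem* (0.31). Against the other control *Creb1* (0.84) and *Crem* (0.60) were past the threshold, as they were in the mutant (0.78 and 0.68). Of 16 compared immediate early and core CREB targets, 2 were higher, *Pde10a* and *Irs2*, and 12 had a difference above 0 (median 0.20), where 71.6% of all compared genes lay below 0. *Nr4a2*, an orphan nuclear receptor gene, was 0.216 CP10K in WT CON and 0.747 in WT FSK (0.52). Both FSK columns were the highest of the 6 for it (1.29 CP10K in mutant FSK).

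**Figure D2:**
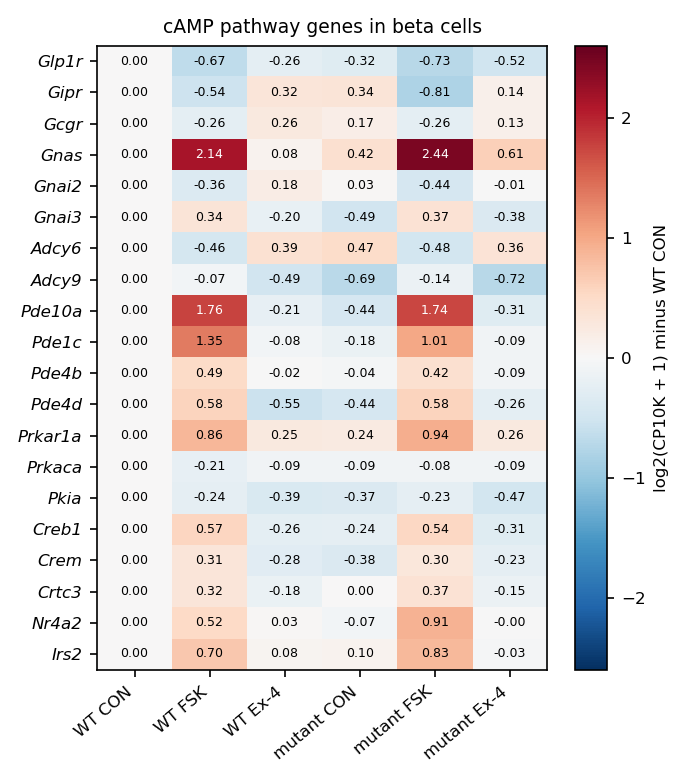
Level of 20 cAMP pathway genes in the 6 beta cell columns as log2(CP10K + 1) minus the WT CON value of the same gene, with receptors at the top, then G proteins, cyclases, phosphodiesterases, PKA genes, CREB factors and targets. *Gnas*, *Pde10a*, *Pde1c* and *Prkar1a* are high in both FSK columns, and the receptor genes *Glp1r* and *Gipr* are low in both.

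Growth factor, cytokine and lipid messenger signaling contributed 19 higher genes, each of them held against the other control and 17 of them called in the mutant. *Dgkg* (chr16:22283359-22476155, minus strand), a kinase that turns diacylglycerol into phosphatidic acid, had the highest difference of all compared genes. Its level was 1.96, 13 and 1.74 CP10K in WT CON, FSK and Ex-4 and 1.62, 11.9 and 1.61 CP10K in mutant CON, FSK and Ex-4. The 2 FSK columns were far above the other 4, and WT FSK was 6.65-fold (6.1 to 7.27) above WT CON. It was the called member among 8 compared diacylglycerol kinases, the next being *Dgkh* (0.35). The difference of *Dgkh* was past the threshold against the other control (0.77) and in the mutant (0.77). *Igf1r* (chr7:67601518-67883416, plus strand), the receptor for insulin like growth factor 1, was 12.6, 48.4 and 8.8 CP10K in WT CON, FSK and Ex-4 and 7.8, 49.7 and 8.42 CP10K in mutant CON, FSK and Ex-4. It was 3.84-fold (3.71 to 3.98) higher. Downstream of this receptor, *Irs2*, the insulin receptor substrate, was 0.621 CP10K in WT CON and 1.64 in WT FSK (2.64-fold, 2.23 to 3.14), and *Pik3r1*, the regulatory subunit of phosphoinositide 3-kinase, was 2.85 and 5.23 CP10K. *Insrr*, the insulin receptor related receptor, went the other way, at 5.16, 1.43 and 4.72 CP10K in WT CON, FSK and Ex-4 and 4.75, 1.31 and 4.31 CP10K in mutant CON, FSK and Ex-4. Both FSK columns lay below the other 4, and it was 3.6-fold (3.23 to 4.0) lower in WT FSK. Of 30 compared genes of insulin and IGF signaling these were the 3 higher and 1 lower, and the list median was 0.00. *Dusp10*, a phosphatase of JNK and p38 kinases, was 0.803 CP10K in WT CON and 3.75 in WT FSK, *Egfr* 2.06 and 3.75 CP10K, the protein kinase C gene *Prkcb* 9.38 and 16.6 CP10K, and the phospholipase C related gene *Plcl1* 0.106 and 0.821 CP10K. The group also held the cytokine receptor genes *Il1r1* (14.4 and 28.2 CP10K) and *Tnfrsf21* (0.584 and 1.59 CP10K).

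*Gsdma*, a gasdermin, a family of proteins that form membrane pores after cleavage, was 0.0996, 3.47 and 0.278 CP10K in WT CON, FSK and Ex-4 and 0.197, 3.48 and 0.209 CP10K in mutant CON, FSK and Ex-4. It rested on 30 counts in WT CON and 1075 in WT FSK (34.9-fold, 24.3 to 52), and *Gsdme*, the other compared gasdermin, was 0.146 and 0.0582 CP10K. The lysosome and autophagy group held 5 higher genes. *Hgsnat*, the lysosomal enzyme that acetylates heparan sulfate, was 0.362, 4.75 and 0.537 CP10K in WT CON, FSK and Ex-4 and 0.509, 2.64 and 0.554 CP10K in mutant CON, FSK and Ex-4, 13.1-fold (10.8 to 16.1) higher in WT and above the other 4 columns in both genotypes. *Wipi1*, a protein of forming autophagosomes, was 1.1 CP10K in WT CON and 4.7 in WT FSK, *Lyst*, a regulator of lysosome size, was 1.87 and 7.31 CP10K, and *Rnf152*, a lysosomal ubiquitin ligase, was 0.103 and 1.8 CP10K (17.5-fold, 12.2 to 26). This was not shared by the lysosomal list, in which 1 of 32 compared genes was called and the median was -0.09. Among genes of protein quality, *Herc4* (0.90 CP10K in WT CON and 5.22 in WT FSK) and *Ubr4* (11.3 and 41.2 CP10K) encode ubiquitin ligases. *Ern1*, which encodes the ER stress sensor IRE1, was 3.26 CP10K in WT CON and 6.5 in WT FSK (1.99-fold, 1.85 to 2.15) and was the sole called gene of 38 genes of ER folding and the unfolded protein response. Of those, 23 had a difference above 0 (median 0.05), beside 71.6% of all compared genes below 0. Among them *Ero1b*, the oxidase of the beta cell ER, was 29.1 and 43.5 CP10K (0.56, and 1.48 against the other control).

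Ion channels and calcium handling contributed 14 higher genes, all held. *Scn3a*, a voltage gated sodium channel alpha subunit, was 0.75, 4.98 and 0.765 CP10K in WT CON, FSK and Ex-4 and 0.732, 4.65 and 0.945 CP10K in mutant CON, FSK and Ex-4, 6.63-fold (5.77 to 7.66) higher in WT. Shares over all compared genes understate calls among well expressed genes: of 4206 genes passing a filter at the 75th percentile, 142 were higher and 69 lower. Of 22 compared potassium channel genes, not matched for level, 5 were higher and 0 lower, beside 1.52% and 0.723% of all compared genes, although the list median was -0.10. They were *Kcnj6*, a G protein gated inward rectifier (1.66 and 5.59 CP10K), the delayed rectifier *Kcnb2* (6.86 and 16.2 CP10K), *Kcnh1* (2.27 and 5.08 CP10K), the small conductance calcium activated channel *Kcnn2* (0.584 and 1.76 CP10K) and the large conductance channel *Kcnma1* (18.1 and 29.2 CP10K). No voltage gated calcium channel was called among 10 compared, the highest difference being that of *Cacna1a* (14.3 and 17.4 CP10K, 0.27). *Camk2d* and *Mcu*, the mitochondrial calcium uniporter (1.24 and 2.68 CP10K), were higher. Of 3 compared IP3 receptors, which release calcium from the ER, *Itpr3* was not called (0.956 and 0.62 CP10K, -0.27). *Itpr1* was 4.38, 1.63 and 2.98 CP10K in WT CON, FSK and Ex-4 and 3.38, 1.32 and 3.14 CP10K in mutant CON, FSK and Ex-4, 2.68-fold (2.42 to 2.98) lower and held, and *Itpr2* was 2.73 and 1.36 CP10K and not held (-0.29 against the other control).

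Genes of prohormone processing and of secretory granules differed in both directions. The list for them had 6 higher and 3 lower of 18 compared genes, beside 1.52% and 0.723% of all compared genes, with a list median of 0.40. Those shares again understate calls among well expressed genes, and the list was not matched for level. *Pam*, which amidates peptide hormones, was 4.68, 12.6 and 2.78 CP10K in WT CON, FSK and Ex-4 and 2.83, 15.4 and 3.24 CP10K in mutant CON, FSK and Ex-4, 2.69-fold (2.53 to 2.87) higher. The prohormone enzymes *Pcsk1* (0.77) and *Cpe*, carboxypeptidase E (8.16 and 14.9 CP10K), the granin *Chgb* (1.06 and 3.79 CP10K) and *Scg5*, the chaperone of the convertase PC2 (4.11 and 6.89 CP10K), were also higher and held. *Scg2*, another granin, was 1.48, 2.81 and 2.15 CP10K in WT CON, FSK and Ex-4 and 2.66, 1.48 and 2.46 CP10K in mutant CON, FSK and Ex-4. Its WT FSK value was the highest of the 6 and its mutant FSK value matched WT CON, and it was not held (0.15). The lower members were *Slc30a8*, the zinc transporter of insulin granules, *Ptprn2*, a granule membrane protein, and the transcription factor gene *Rfx6*. *Slc30a8* was 19.2, 10.9 and 8.98 CP10K in WT CON, FSK and Ex-4 and 7.57, 8.44 and 7.72 CP10K in mutant CON, FSK and Ex-4. WT CON was above all other columns and WT FSK was second, so that its difference of -0.77 against WT CON became 0.39 against the other control. *Ptprn2* (-0.68 and -0.06) and *Rfx6* (-0.65 and -0.30) were not held either. Outside the list, *Mctp1*, a calcium binding vesicle protein, was 1.29 CP10K in WT CON and 6.75 in WT FSK (5.23-fold, 4.69 to 5.84), and *Pdyn*, which encodes the opioid precursor prodynorphin, was 0.259 and 1.4 CP10K. *Baiap3*, a Munc13 relative of dense core granule release, was 1.29, 0.12 and 1.99 CP10K in WT CON, FSK and Ex-4 and 2.19, 0.169 and 1.75 CP10K in mutant CON, FSK and Ex-4. It was 10.8-fold (7.7 to 15.6) lower and the single held gene of the 7 lower granule and vesicle genes. Of 39 compared genes of granule exocytosis 2 were called, *Exoc6b* (0.74) and *Stxbp5l* (-0.64).

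The hormone genes themselves were not called against WT CON. *Ins1* was 4.54 CP10K in WT CON and 3.26 in WT FSK and *Ins2* 10.4 and 8.81 CP10K, whose reads may be split between these near-identical paralogs, and *Iapp* was 11.6 and 14.1 CP10K. Their differences were -0.38, -0.22 and 0.26 against WT CON, but -0.97, -0.78 and 1.37 against the other control and -1.05, -0.73 and 1.56 in the mutant, and the values of the last 2 comparisons were all past the threshold. Of 26 islet transcription factor genes *St18* (5.96 and 13.2 CP10K) and *Etv1* (0.448 and 1.37 CP10K) were higher and held, *Rfx6* was lower, and *Nkx6-1* (1.69 and 0.979 CP10K, -0.44) was under the threshold. Among glucose handling genes, *G6pc2*, the beta cell glucose-6-phosphatase, was 4.2, 8.97 and 1.9 CP10K in WT CON, FSK and Ex-4 and 1.59, 9.34 and 1.94 CP10K in mutant CON, FSK and Ex-4 (2.14-fold, 2.0 to 2.28 in WT), and *Gpd2*, the mitochondrial glycerol-3-phosphate dehydrogenase, was 5.3 and 9.84 CP10K. *Slc2a2*, the glucose transporter GLUT2, was 12 and 7.9 CP10K (-0.55, not called), and its difference was 0.44 against the other control and 0.09 in the mutant. Other higher metabolic genes were *Fh1*, fumarase (1.34 and 2.9 CP10K), the vitamin C transporter *Slc23a2* (1.61 and 6.38 CP10K) and *Gmds*, an enzyme of GDP-fucose synthesis (5.31 and 10.3 CP10K).

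**Figure D3:**
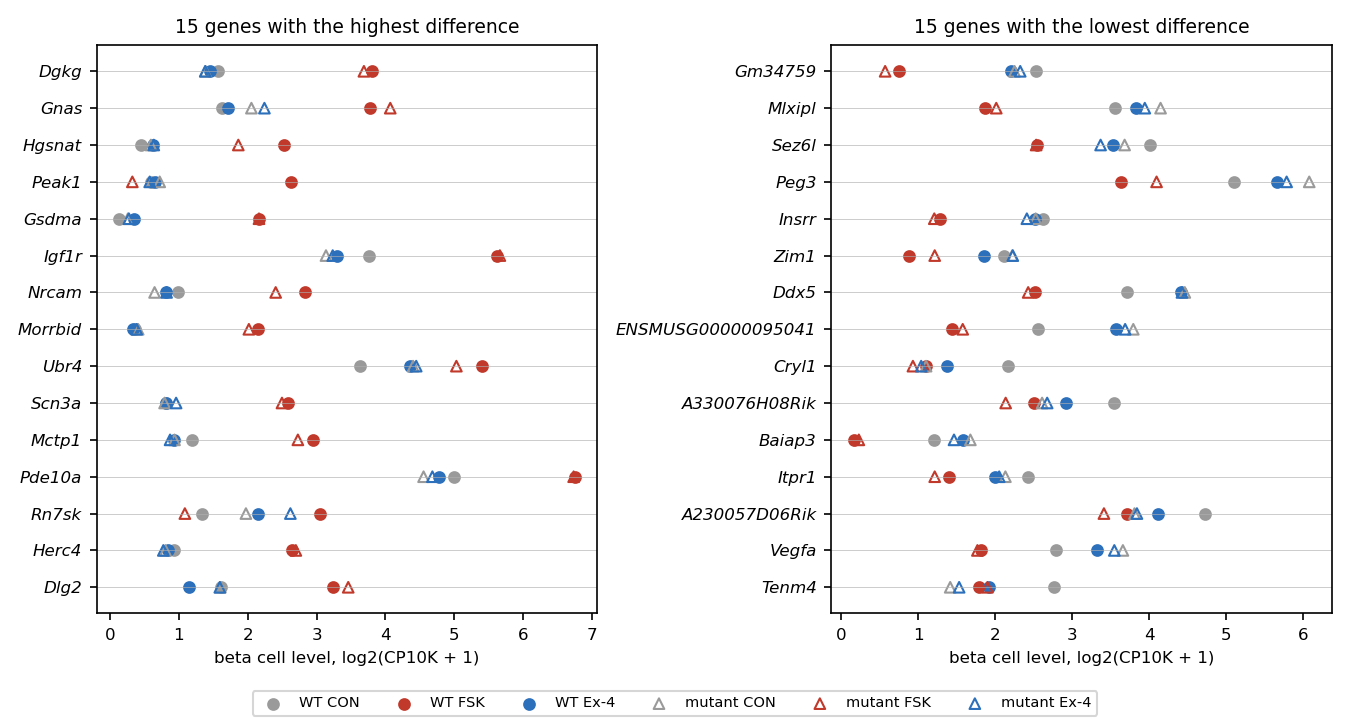
Level in the 6 beta cell columns, as log2(CP10K + 1), of the 15 genes with the highest (left) and the 15 with the lowest (right) difference between WT FSK and WT CON among genes at or above the median level; circles are WT, triangles the Med14 S983A mutant, and color is the treatment. In the left panel the red symbols lie to the right for all genes except *Peak1* and *Rn7sk* in the mutant, and in the right panel WT CON lies apart from the other columns without FSK, above them for *Cryl1*, *A330076H08Rik*, *A230057D06Rik* and *Tenm4* and below them for *Ddx5* and ENSMUSG00000095041, among others.

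*Mlxipl* (chr5:135118744-135168615, plus strand), which encodes ChREBP, the glucose responsive activator of glycolytic and lipogenic genes, had the lowest difference of the compared genes after the noncoding *Gm34759*. Its level was 10.7, 2.64 and 13.2 CP10K in WT CON, FSK and Ex-4 and 16.7, 3.03 and 14.3 CP10K in mutant CON, FSK and Ex-4. Both FSK columns were below the other 4, WT CON was the lowest of those 4, and the gene was 4.07-fold (3.77 to 4.4) lower in WT FSK. Its partners and targets did not share a direction: of 15 compared genes, which include *Mlxipl*, 1 was lower and 1, *G6pc2*, was higher, *Txnip* was 0.315 and 0.136 CP10K and *Elovl6* 0.734 and 1.06 CP10K. *Rora*, a nuclear receptor gene of the clock, was 51 and 30.8 CP10K but was not held (-0.71 against WT CON and 0.08 against the other control). *Vegfa*, the angiogenic growth factor that beta cells release, was 5.92, 2.52 and 8.99 CP10K in WT CON, FSK and Ex-4 and 11.6, 2.4 and 10.7 CP10K in mutant CON, FSK and Ex-4. It was 2.35-fold (2.16 to 2.56) lower, again with WT CON between the FSK columns and the others. *Kmt2a*, a histone methyltransferase gene, was 5.07 and 2.87 CP10K and held (-1.38).

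The imprinted neighbors *Peg3* (chr7:6706882-6733468, minus strand) and *Zim1* on chromosome 7 were lower together. *Peg3*, a zinc finger gene expressed from the paternal allele, was 33.2, 11.4 and 49.5 CP10K in WT CON, FSK and Ex-4 and 66.5, 16.1 and 54 CP10K in mutant CON, FSK and Ex-4, and *Zim1* was 3.34, 0.831 and 2.61 CP10K in WT CON, FSK and Ex-4 and 3.66, 1.32 and 3.68 CP10K in mutant CON, FSK and Ex-4. The FSK columns were below the other 4 for both, and WT FSK was 2.91-fold (2.8 to 3.02) below WT CON for *Peg3* and 4.02-fold (3.5 to 4.62) for *Zim1*. Of 18 compared imprinted genes these were the 2 lower and *Gnas* the 1 higher. Among genes of RNA processing, of 47 compared splicing factors and RNA helicases 4 were lower, none was higher and 36 had a difference below 0, a share near the 71.6% of all compared genes (median -0.25 beside -0.05 over all genes, and -0.51 in the mutant). *Ddx5*, an RNA helicase, was 12.1, 4.71 and 20.3 CP10K in WT CON, FSK and Ex-4 and 21, 4.37 and 20.4 CP10K in mutant CON, FSK and Ex-4, 2.56-fold (2.41 to 2.72) lower. *Luc7l3* (2.96 and 1.53 CP10K), *Srsf11* (3.0 and 1.65 CP10K) and *Rbm25* (5.05 and 3.03 CP10K), all splicing proteins, were held too. The summed list was 128 CP10K in WT CON, 98.4 in WT FSK and 191 to 213 in the 3 other columns without FSK. Transcripts linked to ribosomal RNA varied in the same columns, from 394 CP10K in WT CON and 316 in WT FSK to 1631 in mutant Ex-4. Their members *Cmss1* (-0.84), *Gphn* (-0.78) and *Lars2* (-0.77) were called lower and held, and *Cdk8* and *Rn7sk*, which were put on the same list, were called higher. When all levels were rescaled without the genes linked to ribosomal RNA and the mitochondrially encoded ones, 15 in all, 152 genes were higher and 74 lower.

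Noncoding RNAs included leading genes of both directions. *Morrbid*, a long noncoding RNA next to the apoptosis gene *Bcl2l11*, was 0.292, 3.42 and 0.255 CP10K in WT CON, FSK and Ex-4 and 0.327, 3.05 and 0.308 CP10K in mutant CON, FSK and Ex-4 (11.7-fold, 9.42 to 14.7 in WT). *Neat1*, the scaffold RNA of nuclear paraspeckles, was 11 CP10K in WT CON and 34.5 in WT FSK (3.15-fold, 3.03 to 3.28), and *Lncpint* was 10.2 and 19.2 CP10K. The long noncoding RNA *Gm34759* was 4.75, 0.685 and 3.61 CP10K in WT CON, FSK and Ex-4 and 3.75, 0.482 and 4.0 CP10K in mutant CON, FSK and Ex-4. It had the lowest difference of all compared genes (-1.77) and was 6.93-fold (5.99 to 8.04) lower. *A230057D06Rik* (-1.01 and -0.21 against the other control) and *A330076H08Rik* (-1.04 and -0.22) were called lower but not held.

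Adhesion, matrix and cytoskeleton genes were the most numerous higher group, with 26 genes, 26 of them also called in the mutant. *Nrcam*, a neuronal cell adhesion molecule, was 0.983, 6.09 and 0.765 CP10K in WT CON, FSK and Ex-4 and 0.566, 4.3 and 0.768 CP10K in mutant CON, FSK and Ex-4, 6.2-fold (5.48 to 7.03) higher in WT. *Dlg2*, a scaffold of channels and receptors at synapses, was 2.04 CP10K in WT CON and 8.49 in WT FSK, *Clstn2*, a calsyntenin, 0.657 and 2.67 CP10K, *Septin9* 2.76 and 7.06 CP10K and *Alcam* 2.48 and 5.62 CP10K. The largest ratios of all called genes stood on very few control counts: *Plat*, which encodes tissue plasminogen activator, had 2 counts in WT CON and 165 in WT FSK (80.3-fold, 21.9 to 669), and *Klhl1*, in no group, had 2 and 274 (133-fold, 36.6 to 1107). In both genes the mutant FSK column was high as well (0.821 and 1.49 CP10K). Of 8 lower genes of adhesion and guidance 1 was held, *Sez6l* (15, 4.8 and 10.5 CP10K in WT CON, FSK and Ex-4 and 11.8, 4.77 and 9.31 CP10K in mutant CON, FSK and Ex-4). The netrin receptor genes *Unc5c* (-0.88 and 0.18 against the other control) and *Unc5d* (-0.60 and -0.08) and the teneurins *Tenm2* (-0.70 and 0.40) and *Tenm4* (-0.98 and 0.17) were not. Further lists without a gene called against WT CON were A kinase anchoring proteins (0 of 9), cadherins (0 of 10), cell cycle genes (0 of 9) and heat shock genes (0 of 13). Against the other control the anchoring protein genes *Akap6* (0.87), *Akap13* (0.64) and *Akap9* (-1.06) were past the threshold.

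In mutant beta cells, compared within their own columns, 517 genes (5.12%) were higher and 273 (2.7%) lower after FSK. Of the 153 genes higher in WT, 136 were called higher in the mutant (88.9%), with a median difference of 1.15. Of the 73 genes lower in WT, 26 were called lower (35.6%), with a median of -0.38, and 9 had a difference above 0. Both FSK columns lay above the 4 other beta cell columns for 148 of the 153 higher genes, beside 16.3% of all compared genes, and below them for 49 of the 73 lower genes, beside 34.3%. The WT values that chose these genes are part of that arrangement, so nothing is read from these counts. The 5 higher genes without that arrangement were *Peak1*, *Rn7sk*, *Cdk8*, *Hap1* and *Scg2*. *Peak1*, a pseudokinase of focal adhesions, was 0.508, 5.17 and 0.57 CP10K in WT CON, FSK and Ex-4 and 0.649, 0.252 and 0.491 CP10K in mutant CON, FSK and Ex-4. WT FSK stood above all others (10.2-fold, 8.63 to 12.1) and mutant FSK was the lowest. *Rn7sk*, the RNA that holds the elongation factor P-TEFb inactive, was 1.52, 7.3 and 3.43 CP10K in WT CON, FSK and Ex-4 and 2.93, 1.12 and 5.15 CP10K in mutant CON, FSK and Ex-4. *Cdk8*, a kinase of the Mediator complex, was 19.1, 38 and 44.2 CP10K in WT CON, FSK and Ex-4 and 86.9, 29.97 and 75.7 CP10K in mutant CON, FSK and Ex-4. For *Cdk8*, WT CON was the lowest of the 6 columns and the difference against the other control was -0.79. Of 10 compared genes that the study listed for FSK and Med14, chosen on these nuclei and so no independent evidence, all had a difference above 0 in WT and *Peak1* was called, followed by *Ctnnal1* (0.48), *Hid1* (0.40) and *Pdia6* (0.36). The difference between the genotypes was not tested.

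**Figure D4:**
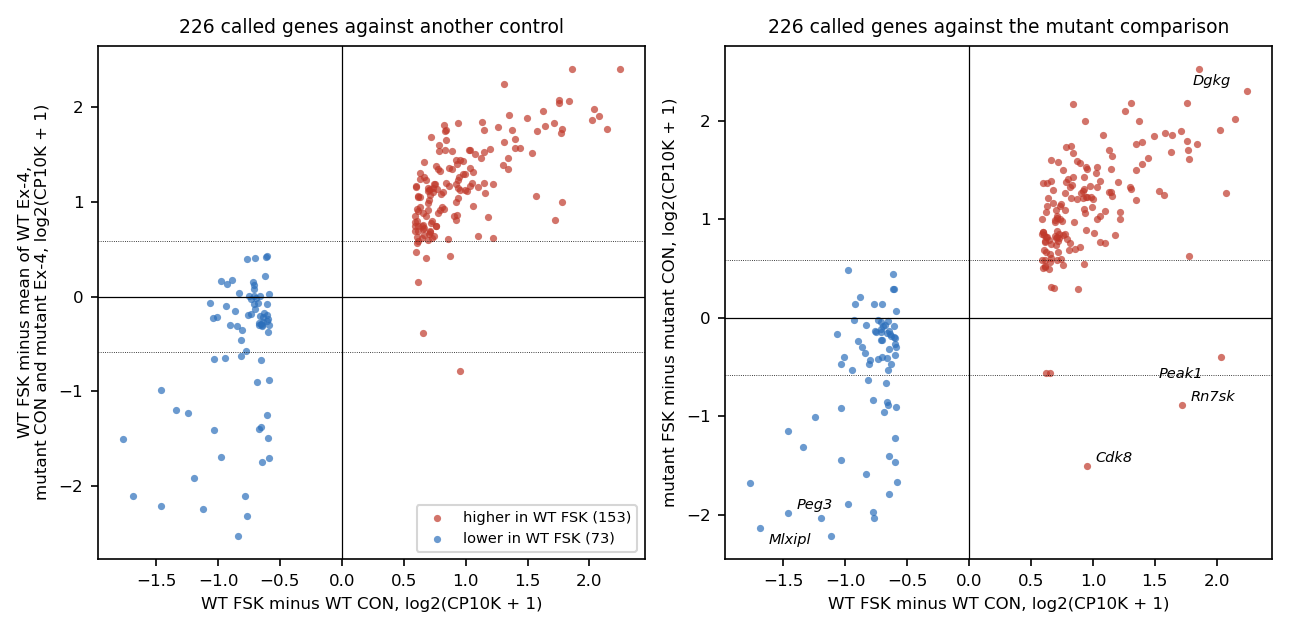
The 153 higher (red) and 73 lower (blue) genes, 1 point each, with the difference WT FSK minus WT CON on the horizontal axis and, on the vertical axis, the difference of WT FSK from the mean of mutant CON, mutant Ex-4 and WT Ex-4 (left) or mutant FSK minus mutant CON (right); dotted lines mark 1.5-fold. On the left 146 red points lie past the line and 25 blue points do, and on the right 136 and 26 do. On the left this was fixed in advance for red points with WT CON above mutant CON, mutant Ex-4 and WT Ex-4.

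In alpha and delta cells, whose columns were shallower (269394 to 427549 counts in WT CON and WT FSK), FSK was compared in the same way. There were 127 higher (1.34%) and 111 lower genes (1.17%) in alpha cells, and 227 higher (2.45%) and 216 lower ones (2.33%) in delta cells. Of 148 genes higher in beta cells and compared in the other types, 35 were also higher in alpha and 48 in delta cells, and 17 were in both. Those 17 included *Dgkg*, *Igf1r*, *Pde10a*, *Dusp10*, *Irs2* and *Chgb*. *Pde10a* was 9.95 CP10K in WT CON and 79.4 in WT FSK alpha cells, and 37.6 and 139 in delta cells. *Igf1r* was 2.22 and 7.87 in alpha, and 3.67 and 21.8 in delta cells. *Gnas* was higher in delta cells (29.4 and 142 CP10K) but not in alpha cells (25.3 and 19.97). *Hgsnat*, by contrast, was near its control level in alpha (0.286 and 0.223) and in delta cells (0.414 and 0.351). *Kcnb2* was called in the opposite direction in both (-0.64 in alpha and -1.12 in delta cells). Of the 73 lower genes 13 were lower in alpha and 32 in delta cells, and 9 in both, *Mlxipl* (-0.63 in alpha and -1.26 in delta cells) among them. *Peg3* was higher in alpha cells (26.4 and 45.5 CP10K) and near its control level in delta cells (27 and 25.6), and *Zim1* was likewise called higher in alpha cells (1.00). *Peak1* and *Rn7sk* were higher in WT FSK in all 3 types, *Peak1* reaching 8.43 CP10K in alpha cells from 0.429 and 4.75 in delta cells from 0.469. The study describes its Med14-dependent FSK genes, *Peak1* among them, as a beta cell response that alpha, delta and PP cells lack. In these pooled WT values *Peak1* was not limited to beta cells. The study compared a set of genes in both genotypes, and mutant alpha and delta values and most other genes of that set are not given here. Differences between cell types were not tested.

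**Figure D5:**
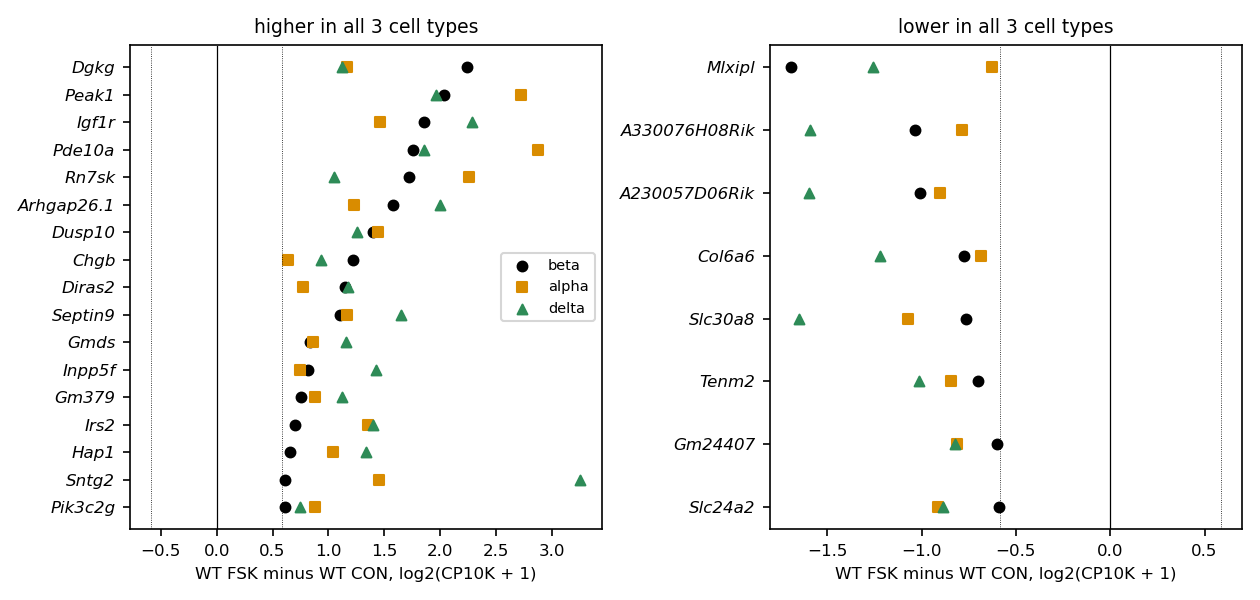
Difference of log2(CP10K + 1) between WT FSK and WT CON in beta (circles), alpha (squares) and delta cells (triangles) for the 17 genes called higher and 8 of the 9 called lower in all 3 types; dotted lines mark 1.5-fold. *Pde10a* and *Peak1* have their highest difference in alpha cells and *Sntg2* in delta cells, while *Mlxipl* is lowest in beta cells.

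The called genes were long: the median gene length was 129 kb for the higher and for the lower genes, against 35.8 kb for all compared genes. Removing the trend on length left 165 higher and 66 lower genes. Of the 30 genes with the highest and lowest differences, 22 overlap another annotated gene, among them *Dgkg*, *Gnas*, *Pde10a*, *Igf1r*, *Peak1*, *Mlxipl* and *Ddx5*, and the sources used here do not say whether strand was used in counting, so reads of overlapping genes could be assigned to either. In pooled values, more nuclei with a transcript and more transcripts per nucleus cannot be told apart.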

How the data were processed

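The deposited table held, for each of 17362 genes and each pair of condition and cell type, the natural log of 1 plus counts per 10000, which the authors made by pooling the nuclei of a cell type. Per the study's methods, islet nuclei were barcoded by a split-pool kit, reads were processed with split-pipe, and nuclei with extreme counts, features or mitochondrial share were removed and the rest integrated with Harmony in Seurat, annotated and downsampled; per the labels the genome was mm39. The sources used here do not say if raw or corrected counts were pooled. From the deposited natural log values, column totals were found at which all values came out as whole counts (within 0.001). Genes entered where their mean over 6 beta cell columns reached the 40th percentile of detected genes (0.0581 on the deposited scale). With 1 pool per condition no test or count model was used. Intervals are exact Poisson for levels and exact conditional binomial for ratios, and both assume that the recovered counts are raw. Gene positions came from GENCODE M39 (GRCm39), which matched 16531 of 17362 symbols. Named genes were the 15 highest and 15 lowest differences among genes at or above the median level, in each of 51 gene lists the called members and up to 4 compared members with the largest difference, and *Med14*; genes named from the functional groups alone were added after their values were seen. The members and lists were chosen with earlier results of these data known. Some called genes are not reported here. The fold calculation was tested on simulated data. Analysis used Python 3, pandas and scipy.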

Additional observations from a re-analysis of the deposited data

How the results depend on the processing

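The counts of 153 higher and 73 lower genes became 629 and 2722 on the CP10K ratio with a pseudocount of 0.0322 CP10K (0.1 times the median level), 320 and 300 with 0.322 CP10K, and 52 and 13 at 2-fold. They became 414 and 180 against the mean of the 4 columns without FSK, and 577 and 288 against the 3 of them other than WT CON, a control chosen after seeing the data. They stayed within 1.5 times with a filter at the 75th percentile (142 and 69), the median of all differences set to 0 (184 and 56), levels rescaled without 15 genes (152 and 74) and the trend on gene length removed (165 and 66). With no filter they were 153 and 73, which was fixed in advance because genes under the filter are too low to reach the threshold. All of the main calls were kept on the ratio with either pseudocount. This too was fixed in advance, because a smaller pseudocount can only enlarge a difference. The number kept was 209 with the median set to 0, 215 with the length trend removed, 172 against the 4 columns and 171 against the 3. In the last 2 settings this was fixed in advance for 109 higher genes, whose WT CON level lay above the 3 columns. Of 84 named genes that were called, 8 changed sign against the 3 columns: *Tenm4* (0.17), *Slc30a8* (0.39), *Grk5* (0.42), *Rora* (0.082), *Unc5c* (0.18), *Tenm2* (0.40), *Bmpr1b* (0.15) and *Cdk8* (-0.79), where the cause was not tested. The median of a gene list kept its sign in 33 of 47 lists with the median set to 0 and in 34 of 47 with the length trend removed. It did so in 46 and 47 of 47 with the smaller and the larger pseudocount, and in 44 of 45 after rescaling. List medians near 0 therefore have no settled sign. No paired analysis was possible because each condition had 1 pool and the result comes from no test. Depth limited weakly expressed genes, and ratios such as those of *Klhl1* and *Plat* rest on 2 control counts.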

Other observations

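Genes in no group described above also differed. *Ank*, a membrane protein that exports pyrophosphate and nucleotides, was 7.58 CP10K in WT CON and 20.9 in WT FSK in beta cells, 2.76-fold (2.63 to 2.89) higher, while its difference was -0.64 in delta cells. *Nalf1*, an auxiliary factor of the sodium leak channel, was 32.9 CP10K in WT CON and 59.2 in WT FSK, and *Gria3*, a glutamate receptor subunit, was 2.55 and 4.79 CP10K. *Sntg2*, a syntrophin, was near the threshold in beta cells (0.139 and 0.743 CP10K) but went from 1.08 to 18.9 CP10K in delta cells. None of these differences between cell types was tested.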
